A study of Mus musculus with 24 samples.

Results

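Late-onset mammary tumors of mice that ate a diet rich in saturated animal fat throughout (HFD Late, n = 6) were compared with late-onset tumors of mice kept on a low-fat diet (LFD Late, n = 5), so 11 of the 24 arrays of the series entered and the early tumors and those of switched diets did not. All tumors arose in female BALB/c mice given the carcinogen DMBA by mouth during puberty, and both diets began at weaning and were never switched, so the groups shared strain, carcinogen and schedule. The question was whether a continuous HFD leaves a mark on the expression of tumors labeled late. The labels do not give the latency of each tumor, so it may differ between the groups. The late HFD tumors were MSU_62a, MSU_67, MSU_84, MSU_86, MSU_93 and MSU_96, and the late LFD tumors were MSU_28, MSU_34, MSU_105, MSU_122a and MSU_137. The labels do not say which mouse each tumor came from, so the p-values measure the spread between these tumors. The diets differed in energy as well as in fat, and their parts cannot be told apart here.

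DMBA is a polycyclic hydrocarbon that becomes mutagenic once cytochrome P450 enzymes have oxidized it, and in mice it gives mammary tumors of glandular, adenosquamous and other kinds. A whole tumor holds cancer cells together with fibroblasts, vessels, fat and immune cells, and its RNA is the sum of all of them. In such bulk RNA, fewer cells of a type and less RNA per cell cannot be told apart. Cells short of oxygen stabilize HIF, a transcription factor that binds the letters ACGTG near its targets and turns on glycolysis, carbonic anhydrase 9 and VEGF. T cells are recruited into tumors by chemokines such as CXCL9.

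Each tumor was hybridized to its own Agilent two-color array beside Universal Mouse Reference RNA, a mix from 11 mouse cell lines. Levels are given as log2 of tumor over reference, Cy5 over Cy3, as the sample labels have it. The methods of the study put the reference in Cy5, which would turn every sign below. The signals settled it: over 14967 probes the median SD between arrays was 0.45 in Cy5 and 0.16 in Cy3 (log2), and the 2 Y chromosome probes measured were brighter in Cy3 in 14 of 14 values; the tumors are from females. The tumors lay on 3 slides. Slide 1 held LFD tumors (MSU_34, MSU_105, MSU_122a and MSU_137), slide 3 held HFD tumors (MSU_62a, MSU_67, MSU_84 and MSU_86), and only slide 6 held both diets (MSU_93 and MSU_96 of HFD, MSU_28 of LFD). On slide 6 the Cy5 signal was dimmed in rows 381 to 532, and these rows, 28.28% of the probes, were left missing there. For genes in these rows the comparison is slide 3 against slide 1, and diet and slide cannot be told apart. The same holds for every gene where a value is given below as within slides 1 and 3. In Cy5, 67.6% to 89.9% of probes stood well above background, and MSU_67 (88.7%) and MSU_84 (89.9%) were the brightest arrays. The mean was 8.79 percentage points higher in HFD Late (exact permutation test over 462 assignments, two-sided p = 0.0649, adjusted over 3 such tests p = 0.195). No array repeated the values of another. The closest pairs by repeated spots still differed by more than the noise between spots, by a median of 2.75 times for MSU_28 with MSU_93 and 3.25 times for MSU_67 with MSU_84. That noise is the noise within an array, so these values cannot tell whether 2 arrays received the same RNA.

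The tumors did not sort by diet. Over the 11548 genes with a value on every array, Pearson's r between tumors ranged from 0.75 to 0.96 within LFD Late, from 0.60 to 0.97 within HFD Late and from 0.60 to 0.93 between the diets. Mean r was 0.012 lower within diets than between them (exact permutation test, two-sided p = 0.370, adjusted p = 0.555). Nor was a difference in spread between tumors detected, with a median ratio of the SDs, HFD over LFD, of 0.08 on the log2 scale (exact p = 0.729, adjusted p = 0.729). MSU_86, an HFD tumor, stood apart from all others, with r between 0.60 and 0.71. The median r of MSU_86 with the other 10 tumors was 0.64, against 0.79 to 0.89 for each of the rest.

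**Figure D1:**
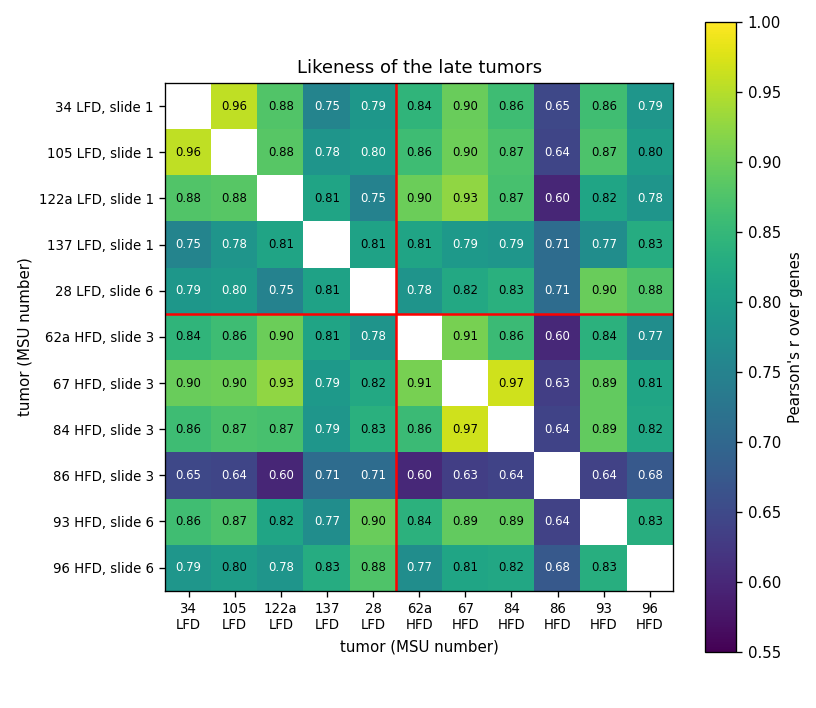
Pearson's r between each pair of the 11 late tumors over 11548 genes, LFD tumors first, with red lines between the diets. MSU_86 is the dark row and column at 0.60 to 0.71, and the brightest cells (MSU_67 with MSU_84, MSU_34 with MSU_105) join tumors of 1 slide.

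Cell type markers showed what the tumors were made of, and the variety cut across the diets. Keratin 8, of luminal epithelium, was measured in 10 tumors. Its log2 level was 0.72, 3.60, 3.26 and 2.35 in LFD tumors MSU_28, MSU_34, MSU_105 and MSU_137, and in HFD tumors it ran from -4.74 in MSU_86 over a median of 1.93 to 3.25. MSU_86, the lowest in keratin 8, was the highest in keratin 5 and keratin 14, of basal epithelium, at 2.56 and 3.61. Its mean over 6 basal and myoepithelial genes was 1.38, below MSU_122a (2.00), MSU_34 (1.83), MSU_105 (1.57) and MSU_62a (1.56). The 10 squamous genes with values on all arrays, such as those of the cornified envelope, had a mean log2 level of 1.70 in MSU_86 against -2.49 to -0.22 in the other 10 tumors. MSU_137, MSU_28 and MSU_96 came next in squamous genes at -0.22, -0.74 and -0.96, and these 3, with MSU_86, had the low luminal means, between -0.56 and 0.06 against 1.65 to 2.84 elsewhere. So 2 tumors of each diet were low in the 3 luminal genes measured throughout, though MSU_137 was not low in keratin 8 (2.35) or keratin 18 (3.04). The milk protein genes were highest in MSU_62a (HFD, 4.06) and MSU_137 (LFD, 3.00). Skeletal muscle genes were at -1.35 in MSU_122a and between -4.91 and -3.44 in the rest, so muscle RNA was highest in that LFD tumor. Of the 18 luminal genes listed, 16 were tested, 15 of them lower and 1 higher in HFD Late, with a median difference of -0.46 and 0 at an unadjusted p under 0.05. Without MSU_86 that median was 0.02 and 8 of 15 were higher.

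**Figure D2:**
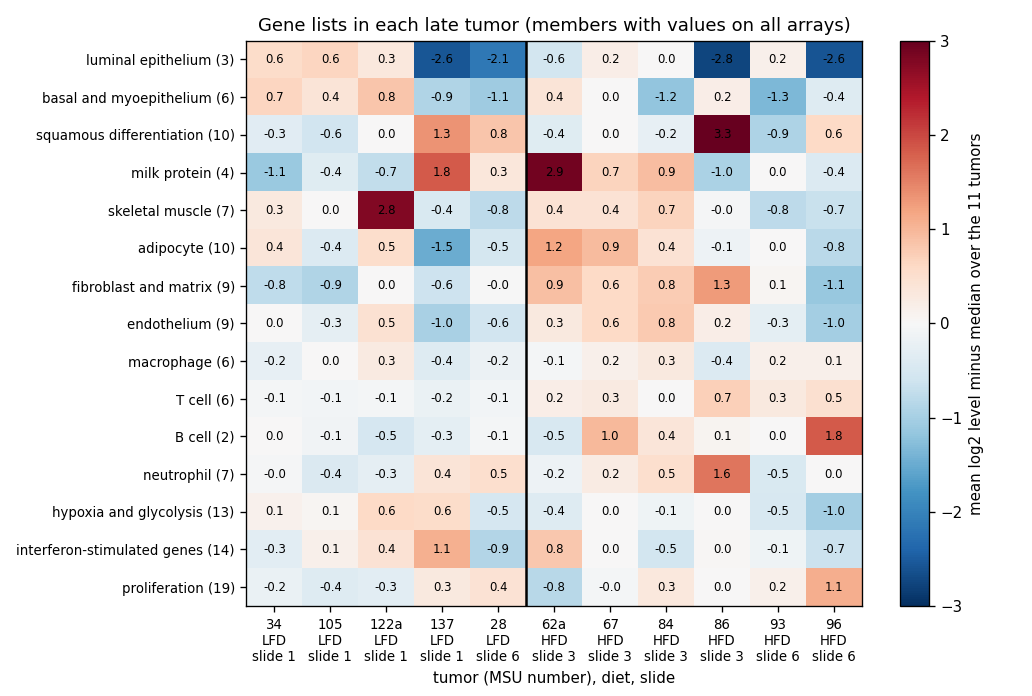
Mean log2 level of the members of each gene list (number of members in brackets) in each tumor, minus the median over the 11 tumors, with LFD tumors left and HFD tumors right of the line. MSU_86 is high in squamous genes, and MSU_86, MSU_96, MSU_137 and MSU_28 are low in luminal genes. MSU_122a is high in muscle genes, and T cell genes are the row in which every HFD tumor lies above the LFD tumors.

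No gene differed between HFD Late and LFD Late at an adjusted p under 0.05 (limma, Benjamini-Hochberg), that is 0 of 20655 genes tested (0%). The lowest adjusted p of any gene was 0.721. Without adjustment, 1083 genes (5.24%) had a p under 0.05, of which 620 were higher (3.00%) and 463 lower (2.24%) in HFD Late. With median centring in place of loess, 365 of 859 such genes were higher, and with the tumor channel alone 478 of 1411, so the larger share of higher genes depends on the scaling. HFD Late had the higher mean for 10522 genes (50.9%), and the difference was over 1 log2 unit upward for 225 genes (1.09%) and downward for 106 (0.513%). The median SE was 0.22 log2 units, the median difference in size 0.17, and for 15510 genes (75.1%) the 95% interval of the difference lay within 1 log2 unit of 0. The diets did not overlap for 516 of all genes tested (2.50%), and among the 11548 genes with all arrays for 43 (0.372%), 33 higher (0.286%) and 10 lower (0.0866%) in HFD Late. With arrays weighted by their fit, limma called 408 genes, 297 higher and 111 lower in HFD Late. Those weights ran from 0.34 for MSU_86 to 5.33 for MSU_67 and 3.23 for MSU_84, 2 much alike tumors of slide 3. The groups described next are therefore ordered by role and given as values, and none of their genes passed the test unless array weights are named.

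**Figure D3:**
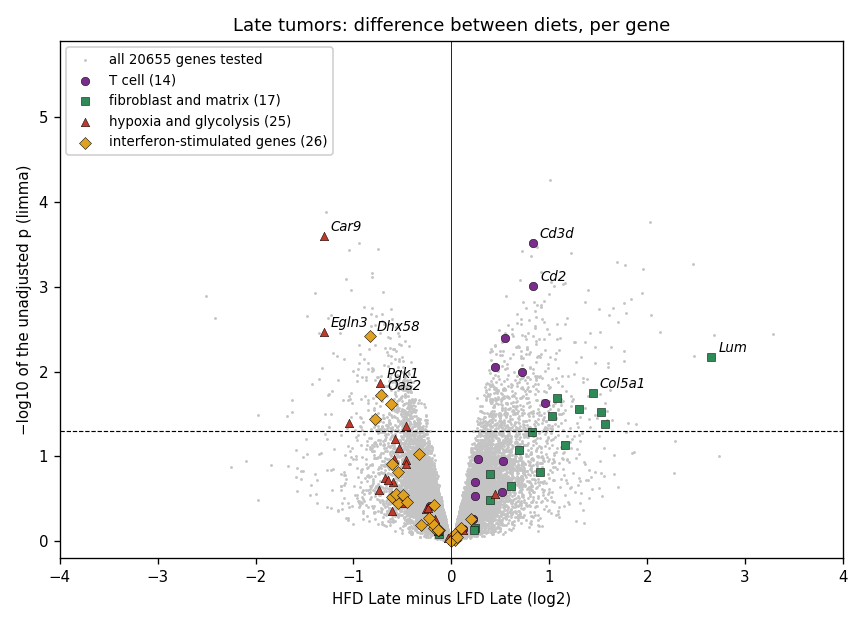
Difference between the diets (log2, HFD Late minus LFD Late) against −log10 of limma's unadjusted value for 20655 genes, with 4 gene lists colored and a dashed line at the 0.05 level. T cell and fibroblast genes lie mostly to the right and hypoxia genes mostly to the left, and no gene passed after adjustment.

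T cell genes were higher in HFD Late on average, though none passed the test. They were higher on slide 3 than on slide 1, where diet and slide cannot be told apart, and on slide 6, with 2 tumors against 1. Cd3d, a chain of the T cell receptor complex (probe at chr9:44794171-44794402, mm9), had log2 levels of -1.36, -0.996, -0.89, -1.01 and -1.53 in LFD tumors MSU_28, MSU_34, MSU_105, MSU_122a and MSU_137. In HFD tumors it ran from -0.59 over a median of -0.40 to 0.04. The diets did not overlap, and the difference was 0.83 ± 0.16 (SE, 95% interval 0.47 to 1.19), or 1.78-fold, with an adjusted limma p of 0.721. On slide 6 alone, MSU_93 and MSU_96 averaged 1.20 above MSU_28. Cd2, an adhesion receptor of T cells, was at 0.30, 0.05, 0.05 and -0.08 in LFD tumors MSU_28, MSU_34, MSU_122a and MSU_137, and from 0.56 over 0.88 to 1.39 in HFD tumors, again without overlap (difference 0.84 ± 0.19). A second Cd2 probe gave 0.46. Lck, the kinase that starts receptor signaling, lay in the dimmed rows, with -1.39 to -1.06 in 4 LFD and -0.78 to -0.56 in 4 HFD tumors. Of 15 T cell genes listed 14 were tested, 13 were higher in HFD Late, 6 had an unadjusted p under 0.05 with a higher value (3.00% of all genes) and 0 with a lower one, and the median difference was 0.48, against 0.01 over all genes. The mean over the 6 T cell genes with all arrays was -0.34 to -0.21 in LFD and -0.15 to 0.58 in HFD tumors. The median stayed above 0 within slides 1 and 3 (0.46), within slide 6 (0.65, 8 genes), without MSU_86 (0.33) and without MSU_67 and MSU_84 (0.65, 8 genes). With array weights, largest for MSU_67 and MSU_84 of slide 3, 3 of the 14 passed the adjusted threshold, beside 408 of all 20655 genes. In that fit 10 of the 14 were higher and the median was 0.22.

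Other lymphocyte genes were among the smallest p-values. Ptprcap, which binds the phosphatase CD45 (chr19:4156556-4156615, mm9), was at -0.60, -0.82, -0.88, -0.65 and -1.35 in the LFD tumors, in the order above, and from -0.44 over 0.10 to 0.60 in HFD tumors. The groups did not overlap, with a difference of 0.91 ± 0.20. Ms4a4b, a membrane protein of T cells (chr19:11537629-11537688, mm9), was at 1.72, 2.29, 2.24, 2.62 and 2.09 in LFD tumors and from 2.78 over 3.07 to 3.33 in HFD tumors. Its difference was 0.87 ± 0.17, but a second Ms4a4b probe gave 0.29. Arhgap45, a GTPase-activating protein of blood cells, had a difference of 0.83 ± 0.19, and its groups overlapped. Among B cell genes, Cd79a and Cd79b, the signaling chains of the B cell receptor, had differences of 0.87 ± 0.43 and 1.14 ± 0.49, which were 0.57 without MSU_96 and 0.76 without MSU_67. Only some HFD tumors were high in them: Cd79a was at 1.30 in MSU_96, 0.56 in MSU_67 and 0.03 in MSU_84, and the other 3 lay between -1.50 and -0.76, against -1.44 to -0.76 in LFD tumors. Cd79b was measured on slides 1 and 3 only.

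Of the 37 cytokines and chemokines listed, 29 were tested, with 5 higher and 1 lower at an unadjusted p under 0.05 (3.00% and 2.24% of all genes). Cxcl9, the interferon-γ-induced chemokine that draws T cells (chr5:92752191-92752250, mm9), was at 1.74, 1.92, 1.73, 2.00 and 1.24 in the LFD tumors and from 2.11 over 2.60 to 3.42 in HFD tumors. The groups did not overlap, the difference was 0.95 ± 0.23 or 1.93-fold, and a second Cxcl9 probe gave 0.89. Cxcl13, which draws B cells, had a difference of 0.81 ± 0.24, and Ccl11, the eotaxin, 0.81 ± 0.26. In both the lowest HFD tumor lay among the LFD tumors. Interferon-stimulated genes of the antiviral kind had a negative median. Of 26 tested, 21 were lower in HFD Late, 4 at an unadjusted p under 0.05 (2.24% of all genes), with a median of -0.27. Those named by the rule, Dhx58 (-0.83 ± 0.21), Oas2 (-0.72 ± 0.24) and Oas3 (-0.61 ± 0.22), of the response to viral RNA, all lay in the dimmed rows and so compare slide 3 with slide 1. Within slide 6 the list's median was 0.40 with 17 of 18 genes higher, and with slide as a fixed block it was 0.28. The block fit is not a separate check. It takes the diet difference from slide 6 alone and leaves genes without values for both diets there as they were.

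Macrophage genes were read as 2 lists. Among the 16 genes of alternative activation 13 were higher, 3 at an unadjusted p under 0.05 (3.00% of all genes), and 1 was lower at that level (2.24%). The median was 0.56, and -0.29 within slide 6. Clec10a, a galactose-binding lectin of macrophages and dendritic cells, was at 0.77, 1.25, 0.98 and 0.24 in the LFD tumors MSU_34, MSU_105, MSU_122a and MSU_137 and at 2.11, 2.72, 3.25 and 1.61 in HFD tumors MSU_62a, MSU_67, MSU_84 and MSU_86, which is 3.06-fold, all on slides 1 and 3. Stab1, a scavenger receptor, had a difference of 0.83 ± 0.34, which was 0.10 within slide 6 and 0.51 without MSU_67 and MSU_84. Arg1, arginase, ran in the opposite direction, with -1.29, 0.43, -1.13, 0.96 and 0.41 in LFD tumors and from -3.83 over -1.42 to -0.31 in HFD tumors (difference -1.68 ± 0.69), and the groups overlapped. The 15 general macrophage genes tested had a median of 0.13 and 10 with an interval within 1 log2 unit of 0. Csf1r, the receptor for macrophage growth factor, differed by 0.46 ± 0.23 (0.07 within slide 6), but other Csf1r probes gave 0.99 and -0.15. Lyz1, a lysozyme, differed by 1.14 ± 0.23 on slides 1 and 3 only, where its near copy Lyz2 may share the signal. Csf3r, the receptor of granulocyte growth factor, was at 0.21 to 0.61 in LFD and 0.71 to 1.14 in HFD tumors, a small difference of 0.42 ± 0.12 without overlap that was 0.17 within slide 6.

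Hypoxia genes had a negative median difference, led by Car9 and Egln3. Promoters of its 2 leading members are shown because their genes held the 2 largest differences of the list and carry the HIF core letters, ACGTG or its reverse CACGT on the other strand, in capitals. Both are RefSeq sequences of GRCm38.p6, the 250 bases before the start, 5′ to 3′ on the gene's strand.
Car9 (chr4:43506776-43507025, plus strand): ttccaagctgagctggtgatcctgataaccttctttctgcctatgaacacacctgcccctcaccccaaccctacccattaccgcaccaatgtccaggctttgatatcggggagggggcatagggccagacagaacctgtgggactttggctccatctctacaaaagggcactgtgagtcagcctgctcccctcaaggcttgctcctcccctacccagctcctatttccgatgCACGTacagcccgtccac
Egln3 (chr12:54203875-54204124, minus strand): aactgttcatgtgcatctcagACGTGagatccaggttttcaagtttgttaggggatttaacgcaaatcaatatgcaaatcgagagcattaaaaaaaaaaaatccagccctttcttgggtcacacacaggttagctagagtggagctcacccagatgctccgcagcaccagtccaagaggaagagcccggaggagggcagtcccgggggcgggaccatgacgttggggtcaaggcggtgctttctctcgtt
Counted from the start, the letters lie at position -18 in Car9 and -229 in Egln3. They stood in 17 of 37 promoters of the list's 25 genes found in the table, and in 16.6% of all 32851 promoters of that length. The list holds textbook HIF targets, and a match is not a bound site.

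Car9, the carbonic anhydrase at the surface of hypoxic cells (probe at chr4:43526518-43526577, mm9), had the smallest p among symbol-named genes lower in HFD Late with values on every array. Its log2 level was 0.60, 1.18, 1.14, 1.49 and 1.71 in LFD tumors MSU_28, MSU_34, MSU_105, MSU_122a and MSU_137, and in HFD tumors it ran from -0.78 over a median of -0.01 to 0.37. No HFD tumor reached the LFD tumors, and the difference was -1.30 ± 0.25 (SE, 95% interval -1.85 to -0.76), or 2.47-fold lower, with an adjusted limma p of 0.721. The difference was -1.36 within slides 1 and 3 and -0.88 within slide 6. Egln3, the prolyl hydroxylase that marks HIF for decay and is itself a HIF target (chr12:55280953-55281012, mm9), was at 0.45, 0.98, 0.15, 1.11 and 2.07 in LFD tumors and from -0.95 over -0.25 to 0.50 in HFD tumors. The groups overlapped through MSU_86, the difference was -1.30 ± 0.35, and a second Egln3 probe gave -1.41. Ero1a, an oxidase of the endoplasmic reticulum (chr14:45904192-45904251, mm9), was at 0.23, 1.099, 1.63, 2.80 and 2.74 in LFD and from -0.14 over 0.41 to 0.73 in HFD tumors, a difference of -1.32 ± 0.42 that was 0.06 within slide 6. Of the 26 hypoxia and glycolysis genes listed 25 were tested, 21 were lower in HFD Late, 5 at an unadjusted p under 0.05 with a lower value (2.24% of all genes) and 0 with a higher one, and the median difference was -0.49. Within slide 6 the median was -0.10 with 8 of 17 genes higher, without MSU_67 and MSU_84 -0.53, and with array weights -0.21. With slide as a fixed block it was -0.18, but that fit also takes the diet difference from slide 6 alone, where genes have values for both diets. The glycolytic kinase Pgk1 differed by -0.73 ± 0.25, but its probe is placed on chromosome 3 in the array's annotation while the gene lies on the X, so a related copy may share the signal.

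Angiogenic factors did not lean 1 way. Of 19 tested, 3 were lower at an unadjusted p under 0.05 (2.24% of all genes) and 0 higher (3.00%), with 10 above 0. The 3 were Vegfa (-0.75 ± 0.30, with -0.89 at a second probe), the growth factor that hypoxia induces, its relative Pgf (-0.73 ± 0.31) and Angpt2 (-0.79 ± 0.35), which loosens vessels. Within slide 6 Pgf and Angpt2 differed by -0.14 and -0.23, and without MSU_86 Pgf differed by -0.49. The 14 endothelial genes had a median difference of 0.27, 11 of them higher, and it was -0.28 within slide 6.

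**Figure D4:**
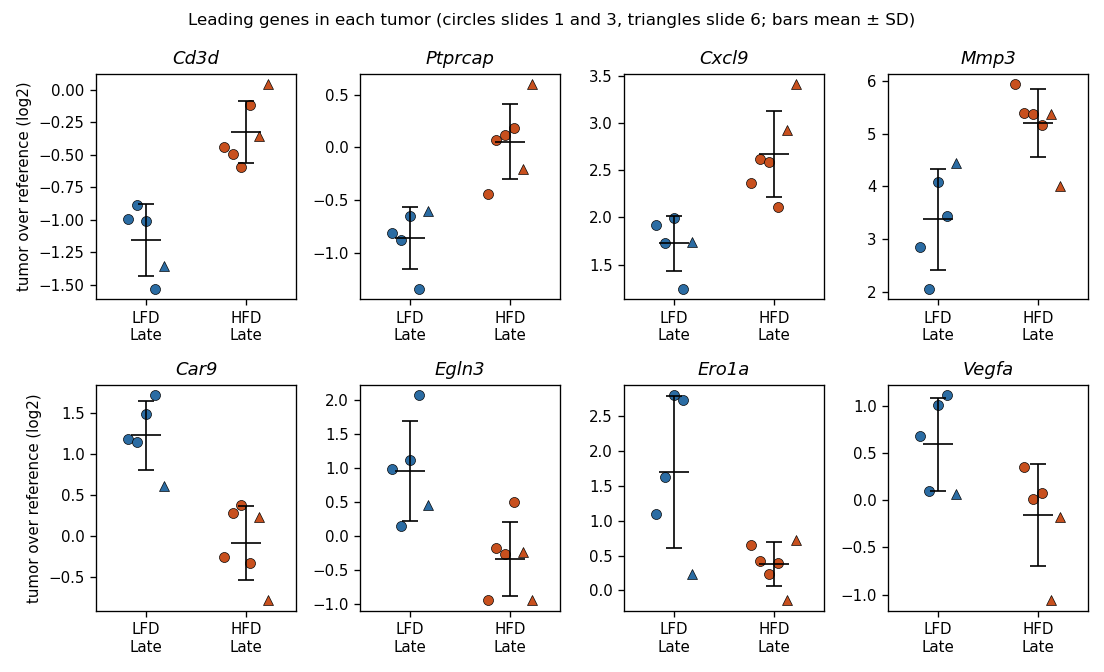
Log2 level (tumor over reference) of 8 genes in each late tumor, LFD blue and HFD orange, circles for slides 1 and 3 and triangles for slide 6, with mean and SD. The diets do not overlap for Cd3d, Ptprcap, Cxcl9 and Car9, and overlap for Mmp3, Egln3, Ero1a and Vegfa.

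Stromal genes were higher in HFD tumors of slide 3 than in LFD tumors of slide 1, and slide 6 did not show it. Of 17 fibroblast and matrix genes tested 16 were higher in HFD Late, 7 at an unadjusted p under 0.05 with a higher value (3.00% of all genes) and 0 with a lower one (2.24%), and the median difference was 0.91. Within slides 1 and 3 the median was 1.31, and within slide 6 it was -0.47 with 5 of 14 genes higher. The mean over the 9 members with all arrays was -2.88 to -1.98 in LFD tumors, -1.38 to -0.70 in the 4 HFD tumors of slide 3, and -1.91 and -3.12 in MSU_93 and MSU_96. Lum, lumican of the collagen matrix, was measured in 3 LFD tumors at -2.34, -4.91 and -4.46 and in 5 HFD tumors at -2.87 to -0.13 (difference 2.66 ± 0.74, and 0.73 within slide 6). Col5a1, a fibrillar collagen chain, differed by 1.44 ± 0.49 on slides 1 and 3, with MSU_86 far above the rest at -0.72 and a difference of 0.95 without it, and Col6a1 by 1.08 ± 0.40, which was 0.06 within slide 6. The receptors of fibroblasts, Pdgfra and Pdgfrb, differed by 0.91 ± 0.59 and 0.83 ± 0.38 and turned to -1.45 and -0.14 within slide 6. With array weights 6 of the 17 genes passed the adjusted threshold, beside 408 of all 20655 genes. Those weights were largest for MSU_67 (5.33) and MSU_84 (3.23) of slide 3, so diet and slide cannot be told apart there either.

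Matrix proteins and their proteases were also among the smallest p-values. Mmp3, stromelysin (chr9:7455751-7455810, mm9), was at 4.45, 2.86, 2.05, 4.08 and 3.44 in LFD tumors and from 4.00 over 5.38 to 5.94 in HFD tumors, 3.57-fold higher on average (difference 1.83 ± 0.44), with MSU_96 below the highest LFD tumors. Mfap2, of elastic microfibrils, differed by 1.77 ± 0.37, and Srpx, a secreted sushi-repeat protein, by 1.94 ± 0.45. Within slide 6 these 3 differed by 0.24, 0.59 and 0.08. Adamts2, the procollagen protease, differed by 1.76 ± 0.48 on slides 1 and 3, but a second Adamts2 probe gave 0.44. Pla1a, a phospholipase that releases lysophosphatidylserine, was at -0.64, -1.35, -1.42, -1.06 and -0.55 in LFD tumors and from -0.48 over 0.72 to 1.71 in HFD tumors, 3.24-fold higher without overlap, a difference of 1.70 that was 0.79 within slide 6. The remaining leading genes higher in HFD Late were Nnat, an endoplasmic reticulum proteolipid (0.70 ± 0.16), and Gfra2, a receptor of neurturin (1.01 ± 0.23), both without overlap.

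Of leading genes lower in HFD Late outside hypoxia, Fxyd4, a regulator of the sodium pump (chr6:117883603-117883662, mm9), was at 1.67, 2.56, 3.33, 1.73 and 1.46 in LFD tumors and from 0.39 over 0.73 to 1.23 in HFD tumors. The groups did not overlap, and the difference was -1.39 ± 0.33, or 2.62-fold lower. Syt3, a synaptotagmin, did not overlap either but differed by only -0.47 ± 0.13, and a second Syt3 probe gave -0.14. Etnk2, an ethanolamine kinase, Tmprss9, a serine protease, Zbtb18, a transcriptional repressor, and Fblim1, of focal adhesions, differed by -0.63, -0.54, -0.65 and -0.81, with overlapping groups. Other Etnk2 probes gave -0.24 and -0.07. Ascl4 differed by -0.68, but its probe was well above background in only 2 of 6 HFD tumors.

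Fat metabolism, where a dietary effect could be looked for first, showed small median differences. None of the 22 genes of fatty acid synthesis, 25 of cholesterol synthesis and uptake and 28 of fatty acid oxidation had an unadjusted p under 0.05 in either direction, and their medians were 0.12, 0.12 and 0.10. Acacb of the synthesis list differed by 0.86, and a second Acacb probe gave 0.76. Acaca, which commits carbon to fatty acids, differed by 0.45 ± 0.34, and its highest value was in MSU_62a (1.75), without which the difference was 0.21. Other Acaca probes gave 0.46, 0.06 and 0.05. Elovl6, a fatty acid elongase, was at 3.83 in MSU_86 and between -1.49 and -0.25 in the other 10 tumors, so its difference of 1.04 ± 0.74 rested on 1 tumor. Insig1, the sterol sensor, differed by 0.49 ± 0.29, and by 0.28 without MSU_86. In these 3 lists the 95% interval lay within 1 log2 unit of 0 for 9, 14 and 18 genes, so a difference of 2-fold was not excluded for the rest. Of 21 genes of fatty acid uptake and lipid droplets 1 was higher at an unadjusted p under 0.05 (Slc27a1, a fatty acid transporter, 0.50 ± 0.22), and of 18 genes of LXR and sterol export 1 (Abca1, the cholesterol exporter, 0.46 ± 0.17), against 3.00% of all genes, so neither count stands far from that share. Of 22 genes of prostaglandin and leukotriene synthesis, Alox5 (0.85 ± 0.38) and its activator Alox5ap (0.60 ± 0.25) were the 2 with a higher value at that level. Within slide 6 these 4 genes differed by 0.06, -0.07, -0.35 and 0.01, in the order named. Adipocyte genes had a larger median, 0.71, with 12 of 13 higher, 1 of them, the fatty acid carrier Fabp4 (1.55 ± 0.67), at an unadjusted p under 0.05. The secreted hormone Adipoq and the droplet proteins Plin1 and Plin4 differed by 0.73 ± 0.65, 0.68 ± 0.48 and 1.66 ± 0.87, which were 0.31, 0.32 and 0.79 without MSU_137, and no adipocyte gene had an interval within 1 log2 unit of 0. Fabp4 and Plin4 could not be compared within slide 6, and the HFD values of Plin4 came from MSU_67, MSU_84 and MSU_86 of slide 3. The adipocyte median was 0.09 within slide 6 and 0.27 without MSU_67 and MSU_84.

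**Figure D5:**
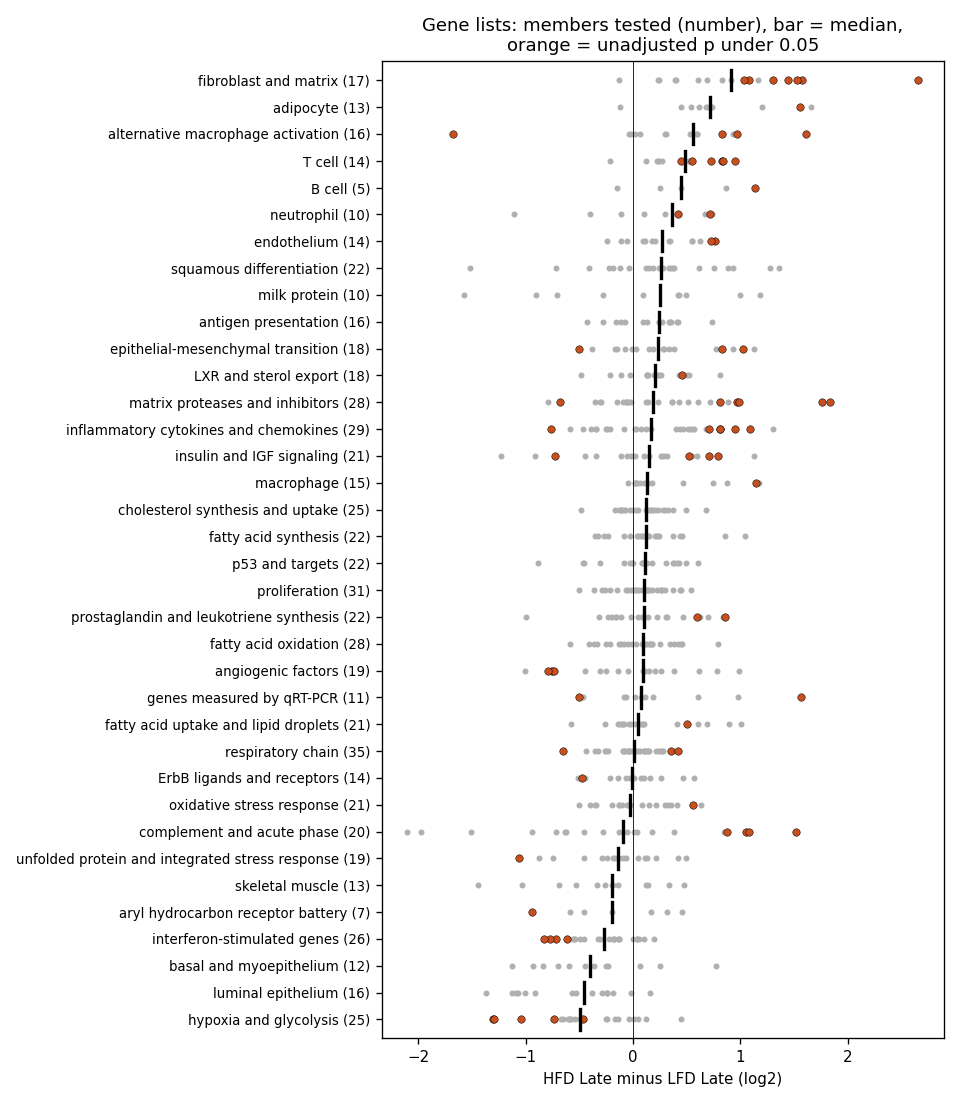
Differences between the diets (log2, HFD Late minus LFD Late) for the tested members of each list, number in brackets, with the median as a bar and members at an unadjusted limma p under 0.05 in orange. Fibroblast, adipocyte, alternative macrophage and T cell lists have the highest medians (0.91, 0.71, 0.56 and 0.48), hypoxia and luminal lists the lowest (-0.49 and -0.46), and the 3 lists of fatty acid and cholesterol metabolism named in the text have no orange point.

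Growth genes gave little. Of 31 proliferation genes tested 0 had an unadjusted p under 0.05 and the median was 0.10, as in 22 genes of p53 and its targets (0 and 0.11). Among 21 genes of insulin and IGF signaling 3 were higher and 1 lower at that level (3.00% and 2.24% of all genes). Among the higher ones, Irs2, an adaptor of the insulin receptor, differed by 0.80 ± 0.33, which was -0.14 within slide 6, and Igfbp6 by 0.52 ± 0.18 on slides 1 and 3. Of 14 ErbB ligands and receptors only Erbb3 (-0.47 ± 0.19, and -0.04 within slide 6) passed an unadjusted p of 0.05. Ahr, the receptor through which DMBA induces its own metabolism, was at 2.07, 1.78, 2.02 and 2.24 in LFD tumors MSU_34, MSU_105, MSU_122a and MSU_137 and at 1.14, 1.28, 1.05 and 0.85 in HFD tumors MSU_62a, MSU_67, MSU_84 and MSU_86. These do not overlap (-0.95 ± 0.16, 1.93-fold lower), but the gene lies in the dimmed rows, so the values compare slide 3 with slide 1. The 6 other Ahr battery genes tested had no unadjusted p under 0.05.

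The basal (12 tested, median -0.40), squamous (22, 0.26), milk protein (10, 0.25) and skeletal muscle lists (13, -0.20) had 0 genes at an unadjusted p under 0.05. Respiratory chain genes had 33 of 35 intervals within 1 log2 unit of 0 and a median of 0.01. At an unadjusted p under 0.05, 2 were higher, Cox5a (0.42 ± 0.13) and Ndufv1 (0.35 ± 0.15), and 1 was lower, Cox6b1 (-0.65 ± 0.17), against 3.00% and 2.24% of all genes. None of these could be compared within slide 6. Of 20 complement and acute phase genes 4 were higher at that level, while the list's median was -0.09. Among them were the complement protease genes C2 (1.52 ± 0.52) and C1s1 (1.05 ± 0.38), both on slides 1 and 3 only. Another was Serping1, an inhibitor of C1s (1.08 ± 0.43), whose difference was -0.37 within slide 6. Of 28 matrix proteases and inhibitors 5 were higher and 1 lower at that level, with a median of 0.18. Mmp23 (0.81 ± 0.24) was among the higher and could not be compared within slide 6. Of 18 genes of epithelial-mesenchymal transition the repressor Zeb1 (0.83 ± 0.29) and fibronectin, Fn1 (1.03 ± 0.46), were the 2 higher, and Ctnnb1 the 1 lower, with a median of 0.23 that was -0.32 within slide 6. Eng, a TGF-β co-receptor of endothelium (0.77 ± 0.33, and 0.41 without MSU_67 and MSU_84), and Egfl7, a protein that endothelium secretes (0.73 ± 0.32, and -0.16 within slide 6) were the 2 of 14 endothelial genes at that level. Among 10 neutrophil genes they were Csf3r and Camp, cathelicidin (0.72 ± 0.27, and -0.03 within slide 6). Of these 10 genes 7 were higher and 3 lower, with a median of 0.36. The markers S100a8 and S100a9 were among the lower ones, at -0.40 and -1.11. The stress lists each had 1, Sod1, superoxide dismutase (0.56 ± 0.24, with 3 LFD tumors measured), of 21 oxidative stress genes and Atf3, a stress-induced transcription factor (-1.07 ± 0.46, slides 1 and 3 only), of 19 genes of the unfolded protein and integrated stress responses. None of the 16 antigen presentation genes had such a p, with a median of 0.24, and within slide 6 all 11 measured were higher, with a median of 1.18.

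Of the 14 genes chosen for qRT-PCR, 11 could be tested on the arrays. Ccnd2, cyclin D2 (chr6:127098696-127098755, mm9), was at -0.37, -2.52, -3.16, -0.48 and -1.87 in LFD tumors and from -1.26 over -0.10 to 1.05 in HFD tumors, a difference of 1.56 ± 0.60 (adjusted limma p of 0.902) with overlapping groups that was 0.44 within slide 6. Ctnnb1, β-catenin, differed by -0.50 ± 0.20 on slides 1 and 3, and the neurotrophin Ntf3 by 0.98 ± 0.49, which was -0.68 within slide 6 and whose probe was well above background in 2 of 5 LFD tumors. Apaf1, of the apoptosome, and Trp53 differed by 0.61 ± 0.40 and -0.47 ± 0.37, Trp53 on slides 1 and 3 only. Apaf1 was -0.42 within slide 6, and Trp53 was -0.16 without MSU_122a. Tgfa, Ccl1, Ccl17, Tgfb1, Bmp7 and Bmp10, all ligands, differed by -0.06 ± 0.30, 0.07 ± 0.11, -0.08 ± 0.24, 0.02 ± 0.34, 0.18 ± 0.50 and 0.11 ± 0.15. For these 6 ligands except Bmp7 the 95% interval lay within 1 log2 unit of 0, and Bmp7 was -0.86 within slide 6. Brca1, Ccl20 and Ccl22 had no probe past the signal filter.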

How the data were processed

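RNA of each tumor was measured on its own Agilent whole mouse genome array beside a reference. The authors deposited scanner output: per spot and dye the intensity of signal and local background, with and without subtraction, its quality flags, and a dye-normalized log10 ratio. The submitters' processing notes name Feature Extraction 8.5.1.1 and the file headers 11.0.1.1. Probe positions are on mm9. Groups came from the sample labels. Normexp removed background with limma 3.58.1 under R 4.3.3 (offset 50, fitted without outlier-flagged or dimmed spots). Loess (span 0.3) normalized ratios, flagged and dimmed spots were left missing, and spots of a probe were averaged. Of 39429 probes, 27200 passed the signal filter, over 10 in Cy5 and Cy3 on 80% or more of arrays having a value. The probe of highest mean intensity stood for each gene, with at least 3 values per diet. This left 20655 genes, 9107 of them with fewer than 11 values and 5795 with a probe in the dimmed rows. RefSeq (GRCm38.p6) named 27234 probes through their accession, 3576 through a symbol and 565 through a former symbol, while 8054 had no match and carry the file's name. Imputation, which the study's methods name, was an alternative here, and significance analysis of microarrays was not run.

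Differences were tested by limma with Benjamini-Hochberg adjustment over all genes, and 3 array-wide values by exact permutation. Named were the 10 genes of smallest p in each direction with values on all 11 arrays, the genes measured by qRT-PCR in the study, up to 3 genes of smallest p per list, and the defining markers. Genes with only a clone, accession or file name were left out when those 10 were picked. Of the genes named by list or as markers, many stand only in their lists' counts, and 1 result is not reported here. The comparison, its members and the 36 gene lists were chosen with earlier results of these data known. Lists were described by counts and medians, without a test. Steps were tested on simulated data. Alternatives were other treatments of dimmed rows, background, scaling, filters, probes, weights, variance, slide and session, and arrays left out; leaving out MSU_67 and MSU_84 together, and all alternatives for list medians, were added after the data had been seen. The number of arrays limits the precision.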

Additional observations from a re-analysis of the deposited data

Results flagged for a closer look

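Within each diet, 250 sets of 4 to 6 tumors (named genes, list means and array measures) were examined for a tumor lying far from the nearest other, and 21 were found, where chance gives about 1 in 20. MSU_86 accounted for 10 of them. It was the lowest HFD tumor for Pgf (-0.11, the next at 1.04), Atf3 (-2.05, the next at -1.32) and Krt8 (-4.74, the next at 1.11) and in its median correlation with the other tumors (0.64, the next at 0.81). It was the highest for Col5a1 (-0.72), Elovl6 (3.83) and the means of the lists for squamous differentiation (1.70), cholesterol synthesis and uptake (0.40), ErbB ligands and receptors (1.07) and cytokines and chemokines (1.72). MSU_28, the LFD tumor on slide 6, was the highest LFD tumor for Mfap2 (-2.27, the next at -3.79) and the lowest in the mean of the unfolded protein and integrated stress response list (-0.12). MSU_93, an HFD tumor of slide 6, was the lowest for Ascl4 (-0.46) and for LXR and sterol export (-0.55). Single values far out were Csf3r in MSU_62a (1.14), Adamts2 and C2 in MSU_122a (0.31, the next at -1.25, and 0.53, the next at -1.58), Egfl7 in MSU_96 (-2.20, the next at -1.08), Plin4 and Camp in MSU_137 (-4.92 and -6.51) and the T cell mean in MSU_137 (-0.34, the next at -0.22, a small gap among tumors that lie close together).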

How the results depend on the processing

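All fits but 1 gave 0 genes called, each array left out in turn included (0 in each); array weights gave 408, and an unadjusted p under 0.05 gave 1083. Genes whose interval lay within 1 log2 unit of 0 numbered 15510, and 24381 with no signal filter (29860 genes tested), 9629 with slide as a random block (correlation 0.617), 9876 with slide as a fixed block, 0 within slide 6 (2 tumors against 1) and 10140 without MSU_67 and MSU_84 (14913 tested), and ranged from 14293 to 15651 with each array left out. Genes with an unadjusted p under 0.05 numbered 136 with slide as a random block, 1908 within slides 1 and 3, 439 without MSU_67 and MSU_84, 5148 with array weights, and 630 to 1855 with each array left out, the highest without MSU_28. With each array left out, the likeness difference ranged from -0.0197 to -0.0021, the spread ratio from -0.10 to 0.28 log2 units, turning below 0 without MSU_86 (-0.10) or MSU_96 (-0.04), and the difference in probes well above background from 6.78 to 10.7 percentage points, with an exact p of 0.0238 without MSU_86. Of 89 named genes, 16 had the other sign with slide as a fixed block and 16 of 66 within slide 6. These are not separate checks, since only slide 6 held both diets and the block fit takes the diet difference from it alone. Genes without values for both diets on slide 6 kept their difference without the block in that fit. With array weights 37 of the 89 were called, beside 408 of all 20655 genes, and the cause was not tested. No paired analysis was possible because the labels give no numbers that tie an HFD tumor to an LFD tumor. The limit of the comparison is that 8 of 11 tumors lay on slides of a single diet.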
